A study of Homo sapiens with 12 samples.

Results

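Expression of the annexin family was compared in HepG2 and LM3 cells, 2 human hepatocellular carcinoma (HCC) lines, after knockdown of the long noncoding RNA FASRL. Of 10 annexin genes proposed as members, 6 (ANXA1, ANXA3, ANXA4, ANXA6, ANXA7 and ANXA9) were among the 8842 genes listed, and ANXA2, ANXA5, ANXA11 and ANXA13 were not analysed here. The family was chosen by the measured fall of ANXA9 in LM3 cells, so every annexin value of that contrast is given as a description without a test. ANXA8 and ANXA8L1 were also listed, outside the proposed names, and are described beside the members. Each line was transfected with siFASRL, an siRNA against FASRL, or with siNC, a control siRNA, in 3 replicates harvested 48 h later, which gave 4 groups and 12 libraries. FASRL itself was not among the genes analysed here, so its own level is not given.

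Annexins are cytosolic proteins that bind phospholipid membranes, most of them when calcium rises, through a conserved core of annexin repeats, while their N-terminal tails differ and carry the binding sites for partner proteins. They take part in membrane trafficking, plasma membrane repair and the recruitment of S100 proteins to membranes. ANXA9 is atypical because the calcium-binding sites of its core have been lost. ANXA6 carries a duplicated core and is known for its part in cholesterol transport along the endocytic route. ANXA4 is abundant in secretory epithelia and ANXA7, also called synexin, was named for its activity in membrane fusion. ANXA1 is a ligand of formyl peptide receptors and restrains inflammation.

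Values are the normalized expression values of the authors. RSEM, the program used, gives FPKM or TPM, and which of them was deposited is not stated. Both are scaled by transcript length, so levels are set beside each other between genes. Differences are on the log2(value + 1) scale, on which the change of a low gene appears smaller than it is. The labels do not say that replicates came from separate cultures, so p-values measure only the spread between these samples, which may be technical. Since each library is bulk RNA, fewer cells with a transcript and less of it per cell cannot be told apart.

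The promoter windows of 3 annexins are shown because these members had the most negative log2 differences after knockdown, ANXA9 and ANXA6 in LM3 and ANXA4 in HepG2. The windows were taken from RefSeq (GRCh38.p14), run 5′ to 3′ on the strand of the gene and hold 250 bases before and 50 after the start. These 4 motifs were searched on both strands, and capitals mark the matches: the E-box CACGTG, the AP-1 site TGANTCA, the CCAAT box and the TATA box TATAAA. The ANXA9 window lies at chr1:150982042-150982341 on the plus strand, that of ANXA6 at chr5:151157730-151158029 on the minus strand and the second of 2 ANXA4 windows at chr2:69741884-69742183 on the plus strand. The ANXA9 window lies inside the gene, whose first position is 150977306, and so does this ANXA4 window.
ANXA9: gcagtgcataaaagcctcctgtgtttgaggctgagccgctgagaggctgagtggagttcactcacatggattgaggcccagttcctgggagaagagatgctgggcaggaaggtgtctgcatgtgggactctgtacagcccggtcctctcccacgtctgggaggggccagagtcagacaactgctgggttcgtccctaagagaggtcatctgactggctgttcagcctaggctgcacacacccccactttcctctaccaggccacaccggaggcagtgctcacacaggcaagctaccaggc
ANXA6: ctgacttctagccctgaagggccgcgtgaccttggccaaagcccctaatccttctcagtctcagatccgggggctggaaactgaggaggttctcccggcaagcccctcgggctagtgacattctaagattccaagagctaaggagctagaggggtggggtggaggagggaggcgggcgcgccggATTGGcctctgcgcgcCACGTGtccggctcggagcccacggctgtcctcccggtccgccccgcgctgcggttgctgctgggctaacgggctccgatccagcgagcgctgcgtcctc
ANXA4: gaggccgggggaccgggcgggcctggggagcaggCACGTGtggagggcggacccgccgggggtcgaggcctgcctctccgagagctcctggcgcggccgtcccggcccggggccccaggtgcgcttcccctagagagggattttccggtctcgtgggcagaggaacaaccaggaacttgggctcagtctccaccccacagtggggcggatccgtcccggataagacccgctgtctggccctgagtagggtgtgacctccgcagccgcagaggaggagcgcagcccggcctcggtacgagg
None of the 4 motifs was found in the ANXA9 window, and the bases before the first position of the gene were not searched. The ANXA6 window held an E-box at position -50, with the start at 0, and an inverted CCAAT box at -66, whereas its other window held none of the 4. The ANXA4 window held an E-box at -216, and the other ANXA4 window held none. Of 35116 promoter windows of this length, 7.26% held the E-box, 7.71% the AP-1 site, 34.6% the CCAAT box and 11.5% the TATA box. Among the other listed annexins, ANXA1 had a TATA box at -31 and CCAAT boxes at -77 and -160, ANXA7 had a CCAAT box at -218, and ANXA3 and ANXA8L1 had no match; ANXA8 had no window in the reference and was not searched. These matches are a description of letters in the window.

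The 6 members lie on 6 chromosomes: ANXA9 at chr1:150977306-150995634, ANXA4 at chr2:69643808-69827112, ANXA3 at chr4:78551770-78610447, ANXA6 at chr5:151100706-151157779, ANXA1 at chr9:73151865-73170393 and ANXA7 at chr10:73375101-73414058. In the GENCODE transcripts, none of the 50-base stretches of these 6 genes occurred in another annexin gene or annexin pseudogene. ANXA8 and ANXA8L1, both on chromosome 10, are near-identical copies. They shared 47.0% of the ANXA8 stretches and 81.2% of the ANXA8L1 stretches, so their reads may have been split between them and their separate values are uncertain. ANXA9 overlapped 1 other RefSeq gene, ANXA4 overlapped 3 and ANXA8 overlapped 20, and their reads cannot be told apart where the counting did not use strand, which is not stated.

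ANXA9 was the least abundant member in all 4 groups. In LM3 cells its values were 12.8, 12.9 and 12.9 with siNC and 2.79, 2.76 and 3.0 with siFASRL, which left 22.1% of the siNC level. This log2 difference of -1.85 ± 0.0492 (SE, n = 3 per group) belongs to the contrast that chose the family and was not tested. In HepG2 cells its values were 8.77, 8.37 and 8.80 with siNC and 3.05, 3.19 and 3.17 with siFASRL. Every siFASRL library was below every siNC library in both lines. The decrease in HepG2, a contrast on which the listed genes may have been preselected, left 36.3% of the siNC level, with a log2 difference of -1.22 ± 0.053 and an adjusted p of 8.2e-08 (limma). With siNC the mean of ANXA9 was 1.49-fold higher in LM3 than in HepG2, whereas after knockdown the means of the 2 lines were 2.85 ± 0.131 and 3.14 ± 0.0757 (SD, n = 3).

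ANXA6 was lowest in the LM3 cells with siFASRL. Its LM3 values were 20.0, 21.7 and 21.2 with siNC and 5.66, 6.0 and 6.72 with siFASRL, or 29.2% of the siNC level, a log2 difference of -1.63 ± 0.0668 that was not tested. Its HepG2 values were 35.6, 37.0 and 36.5 with siNC and 38.1, 37.9 and 35.8 with siFASRL. These HepG2 groups overlapped, the log2 difference of 0.04 ± 0.0546 did not pass the test (limma, adjusted p = 0.539), and its sign turned under quantile normalization (-0.06). Whether the ANXA6 response differs between the lines was not tested, since such a test would contain the contrast that chose the family. Among the members, ANXA6 therefore came next to ANXA9 in the size of its LM3 difference, and its HepG2 level did not pass the test in either direction.

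ANXA4 was lower after knockdown in both lines. In HepG2 its values were 79.9, 73.5 and 74.2 with siNC and 29.1, 27.1 and 28.2 with siFASRL, and the decrease was called with a log2 difference of -1.40 ± 0.0587 (limma, adjusted p = 7.22e-08). In LM3 the values were 65.8, 59.0 and 56.3 with siNC and 32.8, 38.1 and 35.8 with siFASRL. The mean with siFASRL was 59.0% of siNC in LM3 and 37.1% in HepG2, and neither pair of groups overlapped. Whether the ANXA4 decrease differs between the lines was not tested.

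ANXA1, ANXA3 and ANXA7 rose in HepG2. ANXA1 had HepG2 values of 58.6, 53.9 and 65.8 with siNC and 101.2, 96.3 and 92.4 with siFASRL, a log2 difference of 0.70 ± 0.0776 (limma, adjusted p = 2.13e-05). ANXA3, a less studied member, had HepG2 values of 32.7, 32.6 and 32.6 with siNC and 59.6, 63.7 and 65.6 with siFASRL, a difference of 0.93 ± 0.0568 (limma, adjusted p = 5e-07). ANXA7 had HepG2 values of 29.7, 29.1 and 32.2 with siNC and 54.4, 56.1 and 54.6 with siFASRL, a difference of 0.84 ± 0.0584 (limma, adjusted p = 1.04e-06). In all 3 genes every HepG2 library with siFASRL was above every one with siNC, but none of the 3 differences reached 1 on the log2 scale. How many of all genes had HepG2 groups without overlap was not counted.

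In LM3 these 3 genes did not move together. ANXA7 was higher after knockdown there too, with 53.2, 53.1 and 51.3 with siNC and 66.1, 72.2 and 73.0 with siFASRL. ANXA1 was lower, with 79.5, 72.8 and 73.7 with siNC and 60.2, 60.6 and 67.9 with siFASRL. ANXA3 was slightly lower, with 45.0, 45.4 and 45.9 with siNC and 41.1, 42.7 and 44.2 with siFASRL. ANXA1 and ANXA3 thus had opposite directions in the 2 lines, without overlap of the groups, but the small ANXA3 difference in LM3 (-0.09 on the log2 scale) became 0.01 under median-of-ratios scaling and -0.17 under quantile normalization. The ANXA1 difference in LM3 (-0.26) became -0.16 and -0.34.

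**Figure D1:**
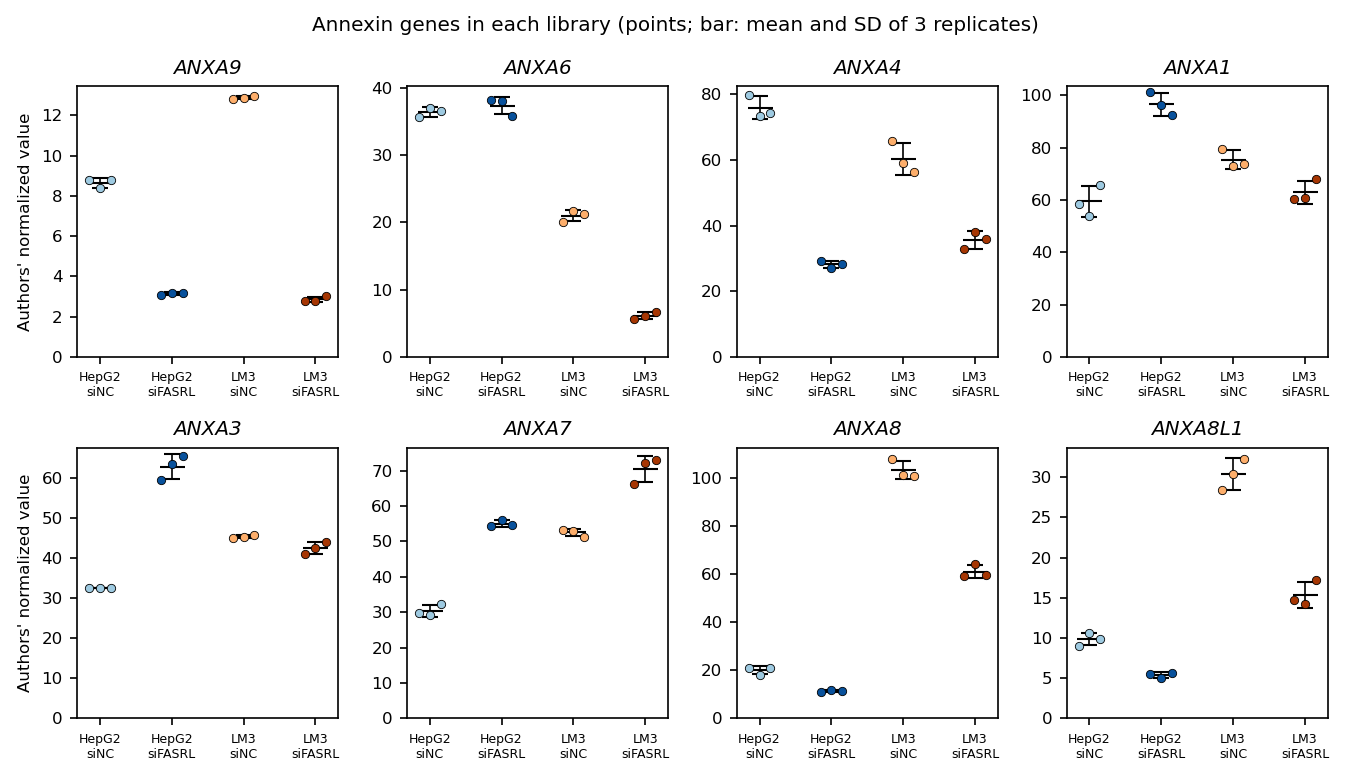
Authors' normalized values (vertical axis, from 0) of 8 annexin genes in HepG2 and LM3 cells with siNC or siFASRL. Points are libraries and bars are the mean ± SD of 3 replicates; ANXA9 and ANXA4 were lower with siFASRL in both lines, and ANXA6 had a mean of 6.13 with siFASRL in LM3 and of 37.3 in HepG2.

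Counted together, 5 of the 6 members passed an adjusted p of 0.05 in HepG2 (limma, Benjamini-Hochberg over 8144 genes), 3 of them higher and 2 lower. Of all genes tested in HepG2, 44.8% were higher and 44.3% lower by the same rule, so passing it does not set the annexins apart. The listed genes, and with them the members, may have been preselected on this HepG2 contrast, which bears on each HepG2 call of a member. With the further requirement of a log2 fold change of at least 1, no member was called higher and 2, ANXA4 and ANXA9, were called lower, against 3.61% and 6.79% of all genes tested. Under quantile normalization the calls by this stricter rule over all genes were 462 higher and 510 lower instead of 294 and 553. The median log2 difference of the 6 members in HepG2 was 0.37, beside 0.10 over all genes tested. In LM3 it was -0.50 beside -0.06, as a description only. Without ANXA9 the member medians were 0.70 in HepG2 and -0.26 in LM3. In LM3 the groups did not overlap for any member, with 1 member higher and 5 lower (ANXA3, at -0.09, turned to 0.01 under median-of-ratios scaling), while 35.6% and 44.6% of the 7483 genes tested had groups that did not overlap in these directions. All 6 members passed the filter on low values in both lines.

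The order of the members changed with knockdown. In HepG2 with siNC it ran from ANXA4 (75.8) through ANXA1 (59.4), ANXA6 (36.4), ANXA3 (32.6) and ANXA7 (30.3) to ANXA9 (8.65). With siFASRL it ran from ANXA1 (96.6) through ANXA3 (63.0), ANXA7 (55.0), ANXA6 (37.3) and ANXA4 (28.1) to ANXA9 (3.14), so ANXA4 went from the highest place to the last but one. In LM3 with siNC the order was ANXA1 (75.3), ANXA4 (60.4), ANXA7 (52.5), ANXA3 (45.5), ANXA6 (21.0) and ANXA9 (12.9). With siFASRL it was ANXA7 (70.5), ANXA1 (62.9), ANXA3 (42.7), ANXA4 (35.6), ANXA6 (6.13) and ANXA9 (2.85). The replicate ranges of neighbours in these orders did not overlap, except those of ANXA7 and ANXA1 in LM3 with siFASRL, but ANXA3 and ANXA7 in HepG2 with siNC came as near as 32.6 and 32.2. The summed value of the 6 members per library was 234.5 to 250.1 with siNC and 279.8 to 285.3 with siFASRL in HepG2, and 261.5 to 276.3 with siNC and 208.8 to 230.6 with siFASRL in LM3. The sum was therefore higher after knockdown in HepG2 and lower in LM3, in both without overlap. Neither the order nor the sum covers the whole family. Both leave out the proposed members not analysed here, ANXA8L1 and ANXA8, and ANXA8 had a mean of 103.3 in LM3 with siNC.

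ANXA8 and ANXA8L1, with the uncertainty of shared sequence, were lower after knockdown in both lines. ANXA8 ranged from 18.1 to 21.1 with siNC and from 10.9 to 11.7 with siFASRL in HepG2, a log2 difference of -0.78 ± 0.0699 (limma, adjusted p = 5.18e-06). ANXA8L1 ranged from 9.04 to 10.6 and from 4.96 to 5.69 in the same groups, a difference of -0.76 ± 0.0725 (limma, adjusted p = 7.54e-06). In LM3 the means of ANXA8 were 103.3 with siNC and 61.0 with siFASRL, and those of ANXA8L1 were 30.4 and 15.4. With siNC, the mean of ANXA8 was 5.15-fold higher in LM3 than in HepG2, which is the widest gap between the lines among the 8 annexins.

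Without knockdown, the lines differed in each of the 5 members tested. ANXA9 was not tested, because its LM3 values with siNC enter the contrast that chose the family. The LM3 siNC values of the 5 tested members also enter that contrast, although the family was chosen by the fall of ANXA9. ANXA1 (log2 difference of LM3 minus HepG2 0.34 ± 0.0805, adjusted p = 0.00433, limma), ANXA3 (0.47 ± 0.0487, 3.17e-05) and ANXA7 (0.77 ± 0.0584, 4.07e-06) were higher in LM3. ANXA4 (-0.33 ± 0.0721, adjusted p = 0.00299, limma) and ANXA6 (-0.77 ± 0.0551, 3.06e-06) were lower in LM3. Thus 3 of 5 were higher and 2 of 5 lower, where 40.4% and 40.6% of 8176 genes tested were called in these directions. Each of the 5 pairs of groups was without overlap, but the share of all genes without overlap was not counted for this comparison. Quantile normalization moved the median of all genes in this comparison from 0.003 to 0.146 on the log2 scale, and the 5 calls kept their directions.

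**Figure D2:**
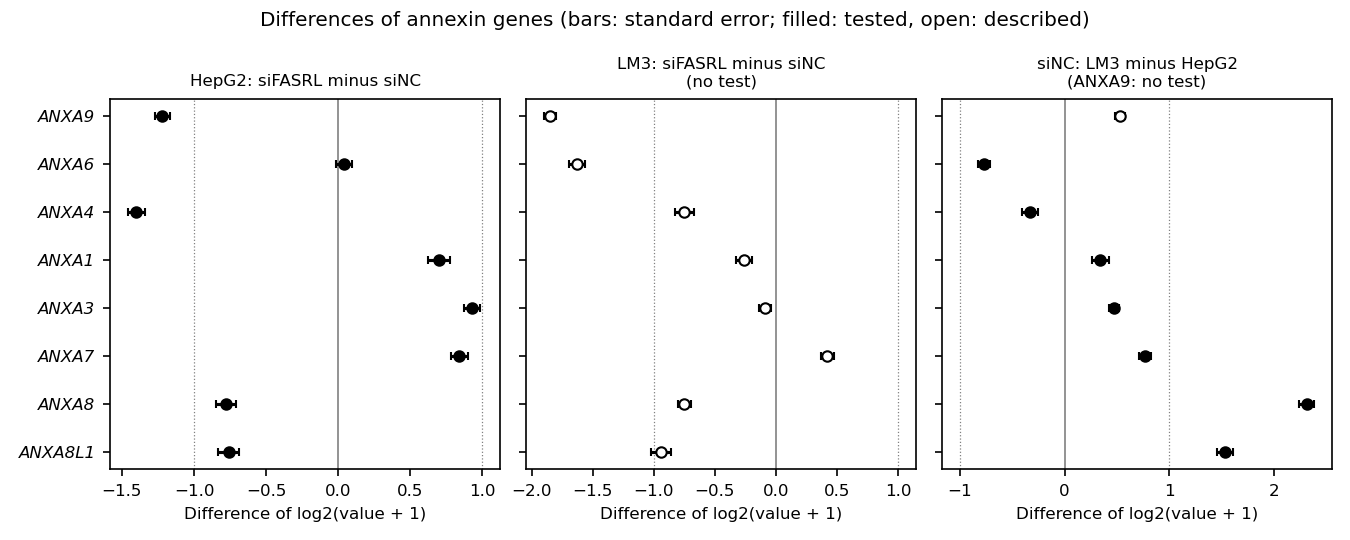
Differences of log2(value + 1) of 8 annexin genes between siFASRL and siNC in HepG2 and in LM3, and between LM3 and HepG2 with siNC. Bars are standard errors, filled points were tested with limma, open points are descriptions (ANXA3 in LM3 turned to 0.01 under median-of-ratios scaling), and dotted lines mark differences of 1; in HepG2 only ANXA4 and ANXA9 lie past them, as they do under both other scalings.

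The listed genes with the profile most like that of ANXA9 over the 12 libraries, measured by the root mean square difference of centred log2(value + 1) among 7348 other genes, were SEPTIN5 (0.096), SREBF1 (0.103), DHCR7 (0.127), FADS1 (0.139) and PIM2 (0.145). SREBF1 encodes the sterol regulatory element-binding protein 1, DHCR7 an enzyme of cholesterol synthesis, FADS1 a fatty acid desaturase, SEPTIN5 a septin and PIM2 a serine/threonine kinase. The mean of SREBF1 was 53.1 with siNC and 22.0 with siFASRL in HepG2, and 70.4 and 21.6 in LM3. The mean of SEPTIN5 was 3.14 and 0.78 in HepG2, and 5.45 and 0.77 in LM3. SEPTIN5 ranged from 0.65 to 0.86 with siFASRL, so it passed the filter through the siNC group alone in both lines. Like ANXA9, these genes were higher in LM3 than in HepG2 with siNC and low in both lines with siFASRL. No other annexin was among the 5 most similar genes, and ANXA4 came nearest at place 236 of 7348. ANXA8L1 was at 2178 and ANXA1 at 3978, and ANXA3, ANXA6, ANXA7 and ANXA8 were at places from 5194 to 6474. The LM3 values that chose the family are part of this measure, and nothing is drawn from it about function or control.

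**Figure D3:**
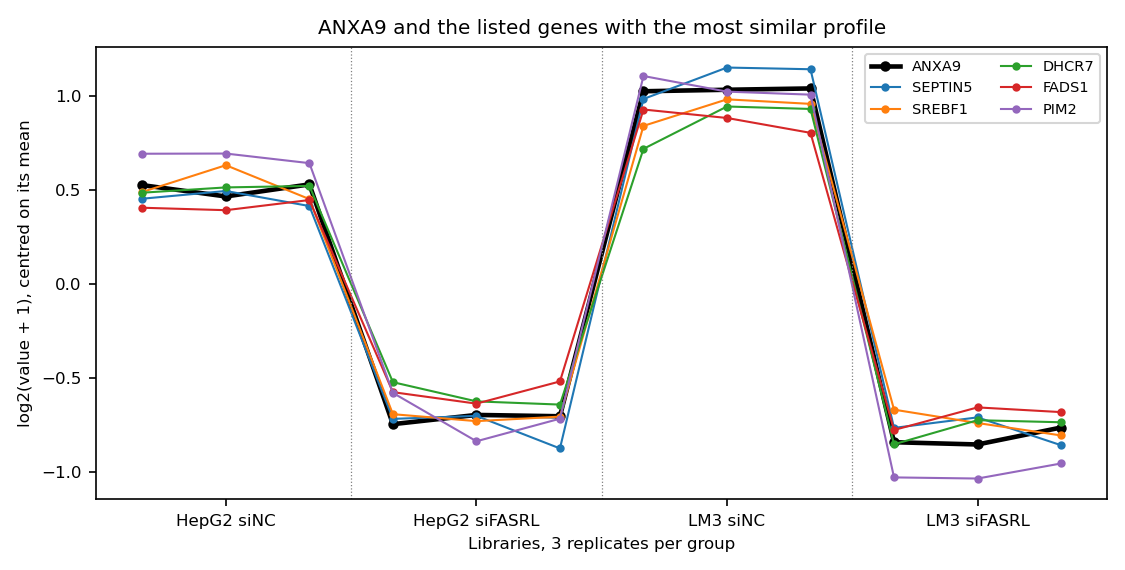
Centred log2(value + 1) of ANXA9 (black) and the 5 most similar listed genes in 12 libraries, 3 replicates in each of 4 groups; lines join the libraries of a gene and carry no order in time. All 6 genes stand above their own mean with siNC and below it with siFASRL in both lines.

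The listed neighbours of ANXA9 on chromosome 1 did not share its size of change. MINDY1, a deubiquitinase gene that lies 901 bases beyond ANXA9, was also lower, with a log2 difference of -0.78 ± 0.0663 in HepG2 (limma, adjusted p = 3.51e-06) and -0.58 ± 0.0661 in LM3 (limma, adjusted p = 6.18e-05). C1orf56, the next listed gene on that side, was higher by 0.53 in HepG2 and 0.39 in LM3 (limma, adjusted p = 8.64e-05 and 0.00108). On the other side, ENSA was higher by 0.65 and 0.58 (limma, adjusted p = 9.13e-06 and 0.000166), and ARNT by 0.25 in HepG2 (limma, adjusted p = 0.00971) with 0.11 in LM3 (limma, adjusted p = 0.152).

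S100 proteins are the best known partners of annexins, and 8 of 19 genes of an S100 list were listed. In HepG2, 5 of 8 were called higher and 3 lower at an adjusted p of 0.05 (limma), with a median log2 difference of 0.43 beside 0.10 over all genes, where 44.8% of all genes were called higher and 44.3% lower. In LM3, none of 7 tested was called higher and 5 were called lower, with a median of -0.50 beside -0.06, where 33.9% of all genes were called higher and 43.5% lower. The LM3 split over all genes, 2536 higher and 3254 lower, became 3060 and 2840 under median-of-ratios scaling and 2807 and 2599 under quantile normalization, with a median of 0.03 under both, and the S100 genes then had 0 higher and 4 or 7 lower. S100A11, a partner of ANXA1, had HepG2 means of 441.7 ± 40.9 with siNC and 672.4 ± 37.4 with siFASRL (SD, n = 3, limma, adjusted p = 5.56e-05). Its LM3 means were 853.0 ± 26.4 and 843.5 ± 53.4 (limma, adjusted p = 0.802). Its change differed between the lines by -0.63 ± 0.102 (limma interaction, adjusted p = 0.000266). S100A11 and ANXA1 both rose in HepG2, and the S100A11 difference of 0.61 there became 0.35 under quantile normalization.

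S100A10, which binds ANXA2, was lower in both lines, by -0.52 ± 0.104 in HepG2 (limma, adjusted p = 0.001) and -0.61 ± 0.0995 in LM3 (limma, adjusted p = 0.000531). S100A4 was the one S100 gene past a difference of 1 on the log2(value + 1) scale, at -1.57 ± 0.0981 in HepG2 (limma, adjusted p = 5.61e-07) and -1.49 ± 0.0997 in LM3 (limma, adjusted p = 3.34e-06). With a pseudocount of 0.1, S100A14 in HepG2 (-1.61, adjusted p = 3.16e-05, limma) and S100A3 in LM3 (-1.08, adjusted p = 6.69e-05, limma) were past it too, from -0.96 and -0.98. S100A14, 1 of the 3 S100 genes called lower in HepG2, passed the filter there through the siNC group alone, and with no filter it was also called (limma, adjusted p = 1.29e-05). By this stricter rule 1.42% of all genes tested in LM3 were called higher and 6.20% lower, and under quantile normalization the calls over all genes were 112 and 215 instead of 106 and 464. S100A6 was higher by 0.24 ± 0.0966 in HepG2 (limma, adjusted p = 0.0357), and its groups overlapped. This S100A6 call was lost under quantile normalization (limma, adjusted p = 0.147), with a pseudocount of 0.1 (0.052), and without siFASRL replicate 2 (0.132) or 3 (0.106) or siNC replicate 1 (0.117) or 3 (0.0853). In LM3 the S100A6 difference was -0.03 ± 0.0676 (limma, adjusted p = 0.741), and under quantile normalization S100A6 (-0.18, adjusted p = 0.0331, limma) and S100A11 (-0.23, adjusted p = 0.0373, limma) passed the test there.

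Of 12 other annexin-binding proteins and receptors, 6 were listed and 5 tested in each line. In HepG2, 4 of 5 were called higher and none lower (limma; all genes 44.8% and 44.3%), with a median of 0.25 beside 0.10, and in LM3, 2 higher and 1 lower (all genes 33.9% and 43.5%), with a median of 0.11 beside -0.06. The LM3 numbers were 3 and 1 under median-of-ratios scaling, with a median of 0.21, and 1 and 1 under quantile normalization, and the HepG2 numbers were 3 and 0 under the latter. AHNAK, a giant scaffold that binds ANXA2 with S100A10, had means of 45.1 ± 1.11 and 45.3 ± 0.58 in HepG2 (SD, n = 3; limma, adjusted p = 0.894) and of 71.4 ± 1.63 with siNC and 42.4 ± 0.84 with siFASRL in LM3 (limma, adjusted p = 3e-06). The change of AHNAK differed between the lines by -0.75 ± 0.0608 (limma interaction, adjusted p = 6.33e-07). PDCD6, a calcium-binding partner of ANXA7 and ANXA11, rose by 0.60 ± 0.0864 in HepG2 (limma, adjusted p = 0.000111) and by 0.23 ± 0.0746 in LM3 (limma, adjusted p = 0.0188). The LM3 call of PDCD6 was lost under quantile normalization (limma, adjusted p = 0.216) and without siFASRL replicate 2 (0.0701) or 3 (0.0556). SRI, which encodes sorcin, another partner of ANXA7, rose by 0.25 ± 0.0723 in HepG2 (limma, adjusted p = 0.00828), but not under quantile normalization (limma, adjusted p = 0.213). In LM3 the SRI difference was 0.11 ± 0.056 (limma, adjusted p = 0.102), and it passed under median-of-ratios scaling (limma, adjusted p = 0.0089) and without siNC replicate 1 (0.0237).

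The plasma membrane repair list, which covers calpains, dysferlin-type proteins and the machinery that sheds damaged membrane, had 17 of 24 genes listed. In HepG2, 9 of 17 were called higher and 2 lower (all genes 44.8% and 44.3%), with a median of 0.23 beside 0.10, and in LM3, 4 higher and 3 lower (all genes 33.9% and 43.5%), with a median of 0.00 beside -0.06. Under median-of-ratios scaling the LM3 numbers were 7 and 3, with a median of 0.10 beside 0.03, and under quantile normalization 2 and 7, with a median of -0.12 beside 0.03. SMPD1, the acid sphingomyelinase of lysosomes, fell most in this list, from 21.0 ± 1.91 to 5.86 ± 0.95 in HepG2 (SD, n = 3; limma, adjusted p = 4.38e-07) and from 19.5 ± 2.77 to 6.62 ± 0.25 in LM3 (limma, adjusted p = 3.38e-06). Of 16 genes for the synthesis and transbilayer movement of phosphatidylserine, the lipid to which annexins bind, 14 were listed. In HepG2, 2 of 14 were called higher and 11 lower (all genes 44.8% and 44.3%), with a median of -0.52 beside 0.10, and in LM3, 2 of 13 tested higher and 9 lower (all genes 33.9% and 43.5%), with a median of -0.60 beside -0.06. ATP8A1, 1 of those called lower, passed the filter through the siNC group alone in both lines, and with no filter it was also called (limma, adjusted p = 5.17e-06 in HepG2 and 1.31e-05 in LM3). None of these genes passed a difference of 1 on the log2(value + 1) scale, but with a pseudocount of 0.1 ATP8A1 did in HepG2 (-1.47) and LM3 (-1.71), as did ATP8B2 in LM3 (-1.05).

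In the plasminogen activation list, where the complex of ANXA2 and S100A10 is a known receptor, 5 of 10 genes were listed. In HepG2, 3 of 4 tested were called higher and 1 lower (all genes 44.8% and 44.3%), with a median of 0.63 beside 0.10, and in LM3, 1 of 2 higher and 1 lower (all genes 33.9% and 43.5%), with a median of 0.44 beside -0.06. PLAU, 1 of the 3 called higher, passed the filter through the siFASRL group alone, and with no filter it was also called (limma, adjusted p = 9.51e-07). Its HepG2 difference of 0.91 became 1.48 with a pseudocount of 0.1, past a difference of 1. SERPINE2, a protease inhibitor, rose by 1.45 ± 0.0529 in HepG2 (limma, adjusted p = 3.83e-08) and 1.12 ± 0.098 in LM3 (limma, adjusted p = 1.33e-05). SERPINF2, which encodes the plasmin inhibitor alpha-2-antiplasmin, fell from a mean of 71.1 ± 5.72 to 16.6 ± 0.41 in HepG2 (SD, n = 3; limma, adjusted p = 2.6e-08) and stood at 0.37 and 0.17 in LM3, below the filter there.

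The list of copines, extended synaptotagmins and synaptotagmins, which also bind membranes through calcium, had 13 of 26 genes listed. Its listed genes also included the synaptotagmin-like genes SYTL2, SYTL3 and SYTL4, which enter the counts below, and DOC2A. In HepG2, 5 of 11 tested were called higher and 6 lower (all genes 44.8% and 44.3%), with a median of -0.42 beside 0.10, and in LM3, 2 of 7 higher and 3 lower (all genes 33.9% and 43.5%), with a median of -0.08 beside -0.06. Under quantile normalization the numbers were 3 and 6 in HepG2, with a median of -0.24, and 1 and 3 in LM3, and the LM3 median turned to 0.01 under median-of-ratios scaling. SYTL3 rose from 0.65 to 2.92 in HepG2 (limma, adjusted p = 1.18e-07), while its LM3 means were 0.68 and 0.45. All 3 HepG2 values of SYTL3 with siNC were below 1, so it passed the filter through the siFASRL group alone and was not tested without any 1 of those libraries, and with no filter it was also called (limma, adjusted p = 2.4e-07). The HepG2 calls of SYTL2 (higher) and ESYT3 (lower) likewise came from genes that passed the filter through 1 group alone, and with no filter both were also called (limma, adjusted p = 1.95e-05 and 8.06e-05). With a pseudocount of 0.1, SYTL2 in HepG2 went from 0.87 to 1.66 and SYTL4 from -0.93 to -1.34, past a difference of 1. ESYT3 in LM3 went past it too, from -0.81 to -1.18. SYT7, a synaptotagmin of lysosome exocytosis, fell from 4.59 to 1.45 in HepG2 (limma, adjusted p = 6.4e-07), while its LM3 means were 0.41 and 0.28. SYT17 fell by 1.01 on the log2 scale in LM3 (limma, adjusted p = 3.51e-05) and by 0.77 in HepG2 (limma, adjusted p = 2.23e-05). The LM3 difference of SYT17 was under 1 with median-of-ratios scaling (-0.96), with quantile normalization (-0.56) and without siFASRL replicate 1 (-0.97) or 2 (-0.99). With a pseudocount of 0.1, SYT17 in LM3 was at -1.81 (limma, adjusted p = 4.36e-05). In LM3 it passed the filter through the siNC group alone (1.55 to 2.32, against 0.44 to 0.62 with siFASRL) and was not tested without any 1 of those libraries, and with no filter it was also called by adjusted p (limma, 0.00014). SYTL3 and SYT7 did not pass the filter in LM3, so their LM3 values were not tested.

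Over the 6 lists of annexin-related genes, 20 genes had a knockdown effect that differed between the lines (limma interaction, adjusted p below 0.05), and 42.5% of the 7349 genes past the filter in both lines passed the same rule. By list these were 4 of 7 S100 genes, 3 of 5 other partners, 7 of 17 repair genes, 4 of 13 phosphatidylserine genes, 2 of 2 plasminogen genes and 1 of 7 copines and synaptotagmins, with PDCD6 counted in 2 lists. Over all genes the effect in LM3 was higher than in HepG2 in 1101 and lower in 2020 of these calls, under median-of-ratios scaling in 1479 and 1554, and under quantile normalization in 1536 and 1826.

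**Figure D4:**
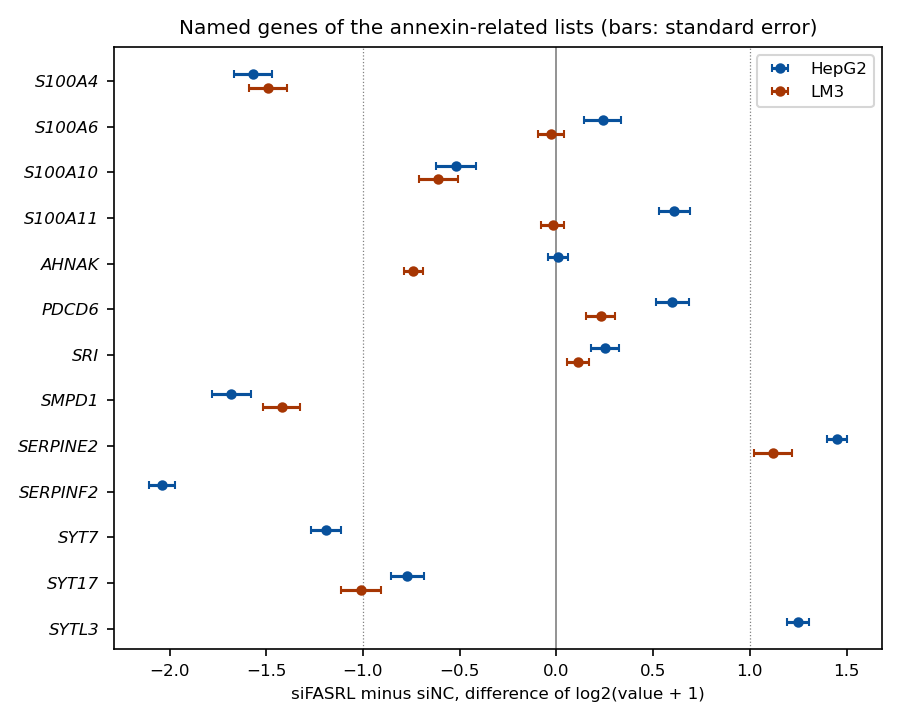
Difference of log2(value + 1) between siFASRL and siNC for 13 named genes of the annexin-related lists, in HepG2 (blue) and LM3 (brown). Bars are standard errors and dotted lines mark differences of 1; SERPINF2, SYT7 and SYTL3 have no LM3 point because they did not pass the filter there, and AHNAK passed the test in LM3 and not in HepG2, and the interaction test called that difference between the lines.

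The lists were also compared between the lines with siNC, where 40.4% of all genes were higher and 40.6% lower in LM3. Under quantile normalization these calls over all genes were 3900 and 2847 instead of 3300 and 3318. At an adjusted p of 0.05 (limma), 4 of 8 S100 genes were higher and 2 lower in LM3, as were 3 and 0 of 5 other partners and 12 and 4 of 17 repair genes. For phosphatidylserine genes these numbers were 6 and 6 of 14, for plasminogen genes 0 and 3 of 3, and for copines and synaptotagmins 4 and 4 of 9. SERPINF2, SYT7 and SYTL4, all called lower in LM3, passed the filter here through HepG2 alone, and with no filter they were also called. Under quantile normalization the S100 numbers were 4 and 1, the repair numbers 10 and 4 and the phosphatidylserine numbers 7 and 5, and the others did not change.

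Markers of cell types were read beside the annexins. Of 11 hepatocyte markers 9 were listed, and their summed value per library was 3717 to 4107 in HepG2 with siNC and 1774 to 1862 with siFASRL, with SERPINA1 the most abundant (1393 and 906.3). In LM3 the sum was 14.6 to 17.9 with siNC and 6.32 to 7.72 with siFASRL, with HNF4A the most abundant (14.3 and 6.71). TTR was at 0 in all 3 LM3 siFASRL libraries and already at 0.05 or less with siNC. LM3, though a liver cancer line, thus had nearly no transcripts of the secreted hepatocyte proteins on this list. In HepG2 all 9 listed markers were called lower (limma, adjusted p below 0.05), as were ANXA4, ANXA9 and 44.3% of all genes. Their part in the annexin changes was not tested.

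Epithelial markers (4 of 6 listed, led by KRT18) summed to 820.7 to 913.2 and 1018 to 1066 in HepG2 with siNC and siFASRL, and to 860.0 to 1004 and 732.5 to 787.6 in LM3. In HepG2, 1 of the 4 was called higher and 2 lower (limma; all genes 44.8% and 44.3%). KRT19 was higher (122.0 and 261.1), EPCAM (31.5 and 15.3) and CDH1 (7.69 and 1.99) were lower, and KRT18 had means of 694.7 and 759.3. Fibroblast markers (5 of 6 listed) summed to 70.6 to 72.2 and 32.3 to 35.4 in HepG2, led by COL3A1 with siNC and COL1A1 with siFASRL. In LM3 they summed to 13.2 to 15.1 and 4.69 to 5.86, led by COL1A1. DCN and LUM were at 0 in the LM3 siFASRL libraries. With siNC in LM3, DCN was already at 0.07 or less and LUM at 0.03 or less. Of the endothelial markers 1 of 5 was listed, VWF, at 0.35 or less in every library. Leukocyte markers (2 of 6 listed) summed to 121.7 to 126.6 and 87.2 to 97.0 in HepG2, led by LYZ, and to 15.1 to 18.2 and 18.4 to 19.0 in LM3, led by CD68. The 2 genes did not move together: LYZ had means of 82.7 and 46.1 in HepG2 and 1.60 and 1.13 in LM3, and CD68 of 41.1 and 44.9 and of 14.9 and 17.5. The fibroblast sums were lower after knockdown in both lines, as were ANXA9 and ANXA4, and their part was not tested either.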

How the data were processed

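RNA-seq was analysed for 12 libraries, 3 per group, grouped by the sample labels. The authors filtered reads with SOAPnuke, aligned them with HISAT2 and Bowtie2 and computed expression with RSEM. The deposited values are normalized expression per gene with 2 decimals, FPKM or TPM, which of these is not stated, so the depth is unknown and no counts were used. The labels name hg19, whereas the chromosome accessions of the deposited tables belong to GRCh38. Positions were read from RefSeq (GRCh38.p14), which held 8790 of the 8842 genes. Symbols of 17 genes turned into dates were restored. The 6 columns that repeat the LM3 values in another table were identical and were not used again.

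The listed genes may be preselected: with means of at least 5, 5 of 5837 HepG2 log2 ratios lay between -0.2 and -0.04, against 574 of 5592 in LM3. Counts and adjustments refer to listed genes only.

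log2(value + 1) was fitted with limma (v3.58.1, R v4.3.3) across all genes that reached a value of 1 in 3 or more libraries of a comparison, with Benjamini-Hochberg adjustment. The difference between the lines was adjusted over 8285 genes and read only for the 7349 past the filter in both lines. The filter did not use the groups, so a gene could pass it through 1 group alone. The script was tested on simulated data. Correlations between replicates were 0.9954 to 0.9989. Alternatives were a pseudocount of 0.1, no filter, median-of-ratios scaling, quantile normalization, a replicate block, 1 fit over all 12 libraries, and leaving out each library. The members and lists were chosen with earlier results of these data known, and 1 gene of the lists is not reported here. Named genes were all listed annexins, 6 known partners, up to 4 genes per list and line past a log2 fold change of 1, the 5 genes most like ANXA9, its 2 listed neighbours on each side, single cell markers, and list genes that passed the filter through 1 group alone or the fold change only with the other pseudocount. Motifs and shared 50-base stretches were searched with Python (v3.11.15).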

Additional observations from a re-analysis of the deposited data

Results flagged for a closer look

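ANXA1 was higher in every HepG2 library and lower in every LM3 library with siFASRL than with siNC, and the LM3 effect minus the HepG2 effect was -0.95 on the log2 scale. ANXA3 had the same opposite directions, with a difference of -1.02, although its LM3 direction turned under median-of-ratios scaling. These 2 differences were not tested, because they contain the contrast that chose the family.

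Among partner genes, the effect of knockdown differed between the lines in a limma interaction test for S100A11 (-0.63, LM3 minus HepG2, adjusted p = 0.000266), AHNAK (-0.75, adjusted p = 6.33e-07) and PDCD6 (-0.37, adjusted p = 0.0244). Among plasminogen genes the difference was -0.32 for SERPINE2 (adjusted p = 0.0364, limma). The S100A11 and AHNAK calls held under all 17 alternatives, whereas the PDCD6 call was lost under median-of-ratios scaling (adjusted p = 0.0535, limma) and held under 9 of 17, and the SERPINE2 call was lost under both other scalings (0.0895 and 0.105) and held under 4.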

How the results depend on the processing

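The counts of annexins called in HepG2 (2 past the log2 fold change, 5 by adjusted p), of members lower by at least 1 on the log2 scale in LM3 (2) and of members differing between the lines with siNC (5) were the same under every alternative. With a pseudocount of 0.1, genes of the other lists called past the fold change numbered 11 instead of 6 in HepG2 and 8 instead of 4 in LM3, where low genes weigh more by construction. Without 1 library these counts ranged from 5 to 7 in HepG2 and from 3 to 4 in LM3, and the interaction count from 15 to 22 around 20. Of 288 single annexin values under the alternatives, 274 kept their call or stayed within 1 SD and 14 untested ones moved further. Replicate numbers did not pair the samples throughout. Same-numbered deviations correlated at 0.312, 0.362 and -0.195 in HepG2 and between -0.163 and 0.091 in LM3. The 6 of 12 libraries that correlated best with their own number were those of HepG2 replicates 1 and 2 and of LM3 replicate 2. Whether libraries of the same number shared a batch is not stated and was not tested. With the replicate block, 2 annexins were called in HepG2 past the fold change and 5 by adjusted p, and 6 and 4 list genes in HepG2 and LM3. Depth is unknown, so low values carry an unknown counting error.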
